A study of Mus musculus with 11 samples.

Results

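Immunoglobulin constant region genes and genes of the antibody-secreting plasma cell were followed in RNA from whole mouse lung. They are Ighm, Ighd, Igha, Igkc, Iglc2, Jchain, Mzb1 and Xbp1, chosen by name, and all 8 were present among the 23255 genes measured. The osimertinib group held 5 libraries from C57BL/6 mice treated with naphthalene, a compound toxic to airway club cells, and then with osimertinib, a drug that blocks the receptor of epidermal growth factor. The naphthalene group held 3 libraries from C57BL/6 mice given naphthalene. The control group held 3 libraries from untreated C57BL/6 mice. Dose, time, age and sex are not given in the labels used here, nor is what distinguishes 1 replicate from another, so the p-values reflect the spread of these libraries and part of it may be technical. The series is about pneumonitis brought about by osimertinib and about naive CD4+ T cells, and the genes described here are those of the B lymphocyte lineage.

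An antibody is built from heavy chains, whose constant region sets the class, and from light chains of the kappa or lambda kind. A resting, naive B cell carries IgM and IgD together on its surface, and makes both by alternative splicing of the same primary transcript, which runs through Ighm and then Ighd. Once activated, a B cell can switch its constant region to another class such as IgA, the class of mucosal secretions, and a plasma cell loses IgD and transcribes heavy and light chains at a very high rate. Plasma cells that secrete IgM or IgA also make the J chain, which links the antibody units into polymers and lets the polymeric immunoglobulin receptor carry them across an epithelium.

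The J chain is joined to a short tail that secreted mu and alpha heavy chains share and that gamma and delta chains do not have in that form. Both tails are shown because Jchain is compared below with the genes of these 2 classes. They are given 5′ to 3′ in the direction of the gene, with the stop codon, from the GENCODE M21 annotation of mouse build GRCm38, at chr12:113420867-113420928 for Ighm and chr12:113258768-113258829 for Igha, both on the minus strand. Capitals mark the bases that are the same in both.
Ighm: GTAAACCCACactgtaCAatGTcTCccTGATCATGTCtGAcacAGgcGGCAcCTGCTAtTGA
Igha: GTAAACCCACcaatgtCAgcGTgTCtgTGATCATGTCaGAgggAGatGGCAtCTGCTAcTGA
The tails are the same at 43 of 62 bases (69.4%). The codon TGC near the end, before a tyrosine codon and the stop, encodes the cysteine that binds the J chain. The deposited values are per gene, so for Ighm, Ighd and Igha the secreted and the membrane form cannot be told apart.

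Values are in CPM of the library's normalised size, called the deposited value here, and 1 read was worth between 0.0568 and 0.459 of this unit. Libraries held 5045361 to 13009975 gene reads. The unnamed gene ENSMUSG00000119584 took 46.8 to 60.3% of them in the naphthalene libraries and 43.9% in osimertinib 2, against at most 0.0337% elsewhere, which left 2018541 to 2965328 other reads in these 4 libraries and 8418669 to 13006929 in the rest. For naphthalene against control this cannot be told apart from the groups. Osimertinib 3 stood apart with the largest erythroid and alveolar type 2 sums (6 and 5 genes, 10362 and 24482). The gene ENSMUSG00000118841 also took 16.7% of the reads of osimertinib 3, against 0.836 to 4.55% in the other libraries. The lung labels were met by Sftpc, the surfactant gene of alveolar type 2 cells, whose mean over all libraries was 8658.

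None of the 8 genes passed the test in any comparison, and the immunoglobulin genes differed in their pattern over the libraries. Ighd and Iglc2 were at low values in the osimertinib libraries, Igha was at high values in several of them, and Ighm, Igkc and Jchain varied widely within the groups. With limma on log2(value + 1), adjusted by Benjamini-Hochberg over the 16225 genes with a mean of at least 1, 0 of 8 members were called for osimertinib against naphthalene, where 0.0% of all genes were called. For osimertinib against control 0 of 8 were called, where 0.00616% of all genes were. For naphthalene against control 0 of 8 were called, where 0.0% of all genes were. EdgeR on the whole reads recovered from these values also called 0 of 8 in each comparison. DESeq2 called none of those it gave an adjusted p, which for naphthalene against control were Ighm, Igkc and Xbp1. At an unadjusted p under 0.05 limma gave 2 members, Ighd and Iglc2, as lower in osimertinib than in naphthalene, where 3.22% of all genes were lower at that threshold. The same 2 were lower in osimertinib than in control, where 2.5% of all genes were, and 0 members were higher at that threshold in either comparison, where 7.08% and 2.31% of all genes were. For naphthalene against control 0 members had such a p, where 1.73% of all genes were higher and 5.74% lower. Without osimertinib 3 the count of 2 against naphthalene was 4, with Ighm and Igkc added, where 4.04% of all genes were lower, and with array weights it was 1, Ighd, where 2.57% were. With the replicate number as a block, limma still called 0 of 8, and for osimertinib against naphthalene the unadjusted p under 0.05 then held for Ighd, lower, where 3.24% of all genes were, and for Igha, higher, where 6.31% were. For Igha that blocked log2 difference was 1.62 (limma adjusted p = 0.509). Under some other settings Igha was also higher at an unadjusted p under 0.05, as given with its values. The same 5 osimertinib libraries stand in both of these comparisons.

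**Figure D1:**
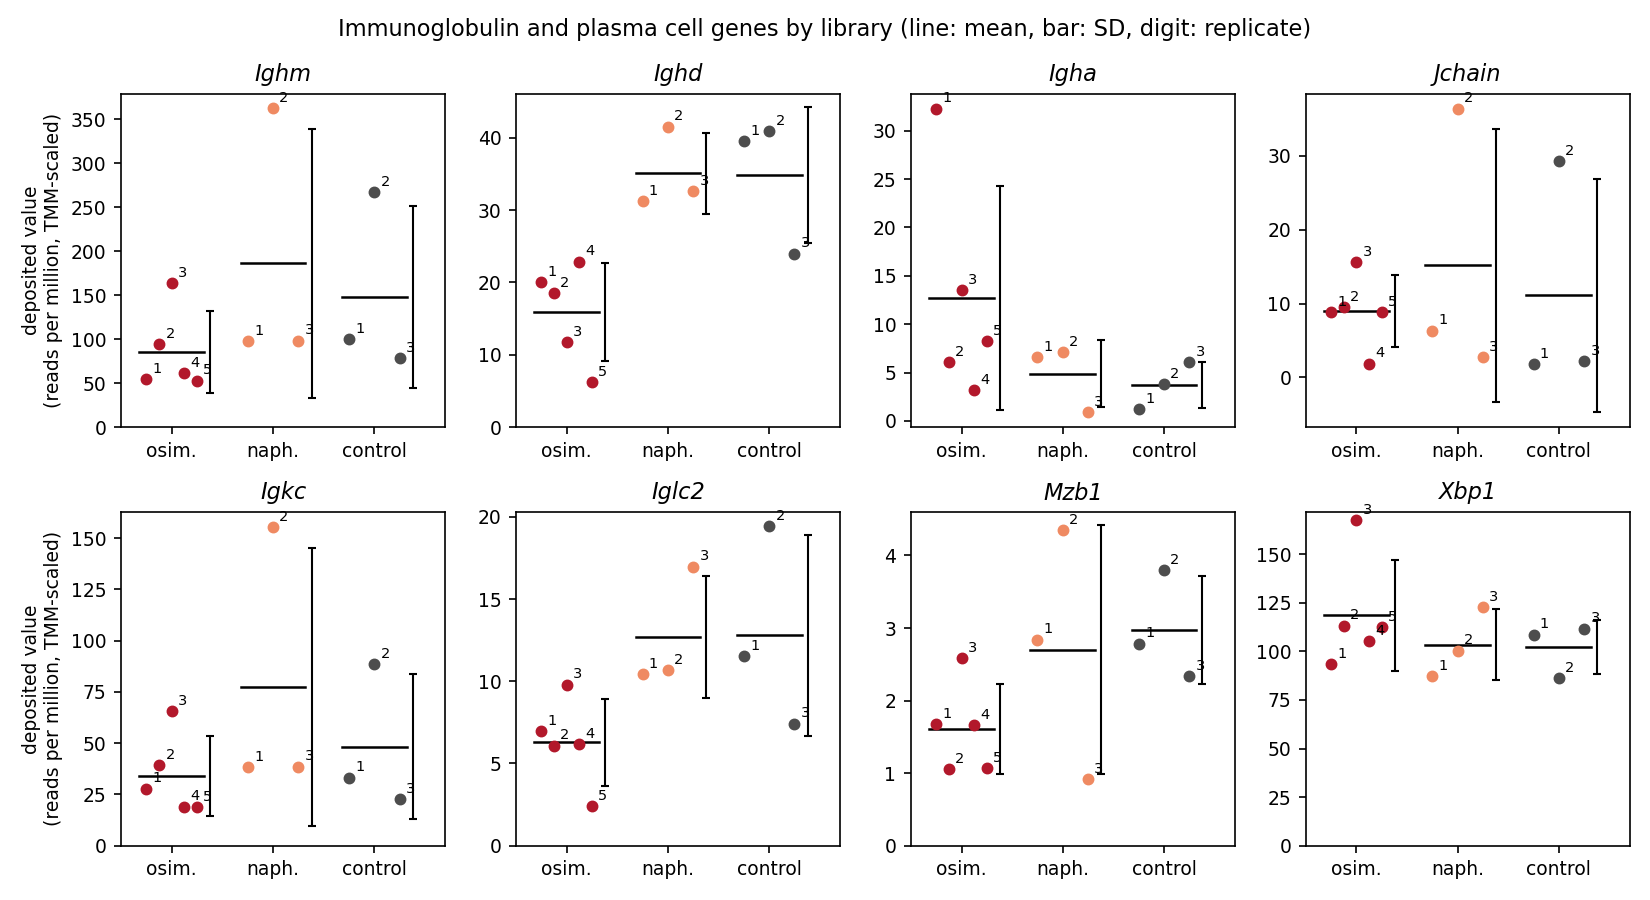
Deposited value (CPM of normalised library size) of each of the 8 genes in the 11 libraries, with the group mean and SD drawn beside the points and the replicate number at each point. Ighd lies lower in the 5 osimertinib libraries (6.20 to 22.9) than in the naphthalene (31.3 to 41.5) and control libraries (24.0 to 40.9), while Ighm and Igkc are highest in naphthalene 2 and control 2.

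**Figure D2:**
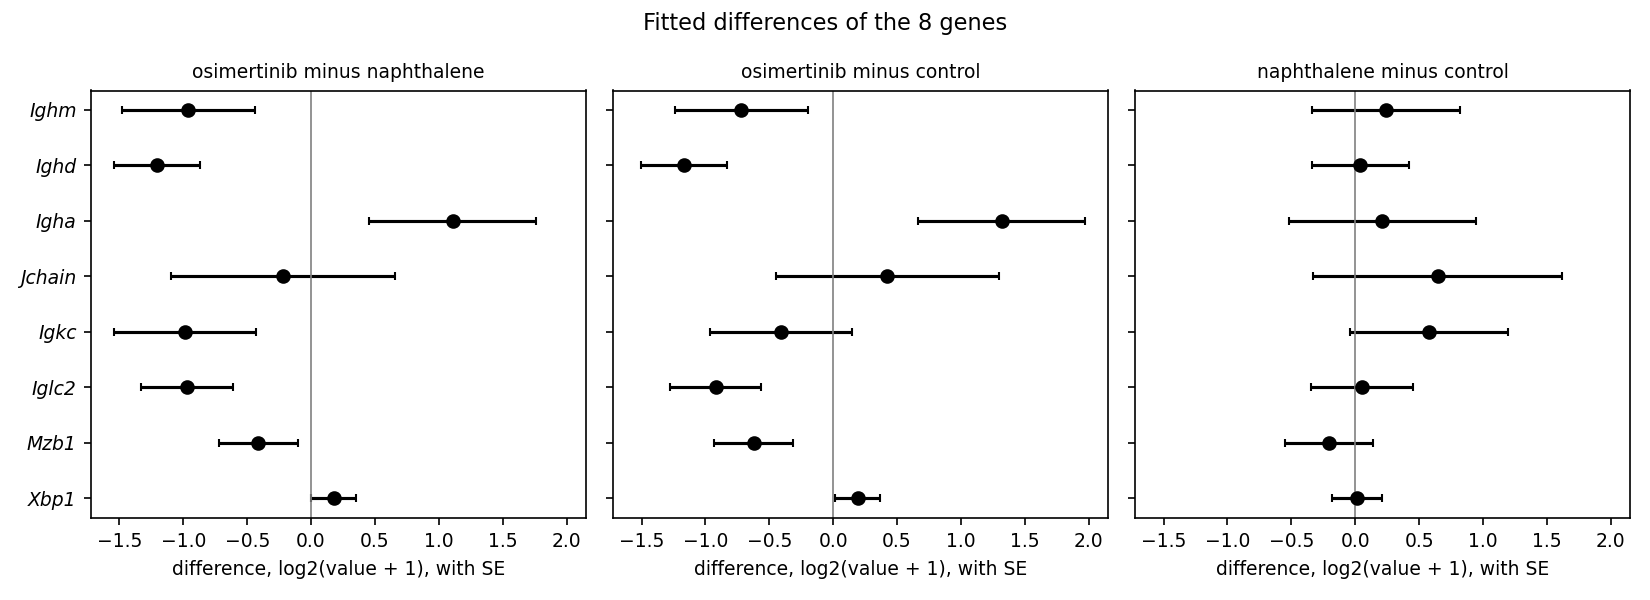
Difference between group means on the log2(value + 1) scale from the limma fit, with its SE, for the 8 genes in each of the 3 comparisons. Igha lies above 0 in both comparisons with osimertinib (1.11 and 1.32) and Ighd below (−1.21 and −1.17), and none of the 24 differences passed the adjusted threshold.

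Ighd encodes the delta constant region, which is carried by mature naive B cells. Its deposited value was 20.1, 18.5, 11.8, 22.9 and 6.20 in osimertinib 1 to 5, 31.3, 41.5 and 32.6 in naphthalene 1 to 3, and 39.5, 40.9 and 24.0 in control 1 to 3. All 5 osimertinib libraries lay below all naphthalene and all control libraries, with the nearest pair being osimertinib 4 and control 3. Such non-overlap downwards was seen for 2.12% of all genes against naphthalene and for 3.43% against control. The means were 15.9 ± 6.79 (SD, n = 5) in osimertinib, 35.1 ± 5.59 (SD, n = 3) in naphthalene and 34.8 ± 9.40 (SD, n = 3) in control. The log2 difference was −1.21 (SE 0.34, limma unadjusted p = 0.00391, adjusted p = 0.260) for osimertinib against naphthalene and −1.17 (SE 0.34, limma unadjusted p = 0.00483, adjusted p = 0.625) against control. DESeq2 gave adjusted p-values of 0.197 and 0.174 for these. Without naphthalene 2 and control 2 the differences were −1.08 and −1.04. With the high read share of ENSMUSG00000119584 as a term, another setting added after the values were seen, the difference against control was −1.25; against naphthalene that term leaves osimertinib 2 alone on 1 side, whose value is given further on without a test. In a tissue extract, fewer cells of a type and less RNA per cell cannot be told apart.

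Ighd lay beside the other B lymphocyte genes. The summed deposited value of 12 B cell genes was 69.2 to 150 in osimertinib, 207 to 294 in naphthalene and 193 to 296 in control, so the sums of the osimertinib libraries were below those of both other groups. Ms4a1, which encodes the surface protein CD20, was at 7.66 to 22.4 in osimertinib, 24.3 to 45.1 in naphthalene and 27.5 to 42.0 in control. Cd79a, a signalling chain of the B cell receptor, was at 6.06 to 15.1 in osimertinib, 21.8 to 31.6 in naphthalene and 20.2 to 33.5 in control. All 12 genes had osimertinib values below both other groups without overlap, as 2.12% of all genes did against naphthalene and 3.43% against control. All 12 also had a limma unadjusted p under 0.05 in both comparisons, where 3.22% and 2.5% of all genes were lower at that threshold. Yet 0 passed after adjustment over all genes with limma on the deposited values or with edgeR. With the term for the high read share 12 of the 12 had such a p against control, and against naphthalene osimertinib 2 was then alone on 1 side, so no count is given. With every library rescaled to equal totals, 0 of the 12 were lower at such a p against naphthalene and 12 against control, where 0.145% and 5.26% of all genes were. That scaling also made 12 lower in naphthalene than in control, where it made 95.3% of all genes lower. At the adjusted threshold limma called 8 of the 12, all lower, against control with array weights, where 0.419% of all genes were called lower, and 11 under equal totals, where 0.52% were. DESeq2 called 3 of the 12 against naphthalene and 6 against control, all lower, where it called 0.0616% and 0.203% of all genes lower. The median log2 difference of the 12 was −1.003 against naphthalene, with a median over all genes of 0.06, and −0.98 against control, with −0.01 over all genes. Over the 11 libraries the correlation of Ighd with Cd79a was r = 0.95 and with Ms4a1 r = 0.90 on the log2(value + 1) scale.

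**Figure D3:**
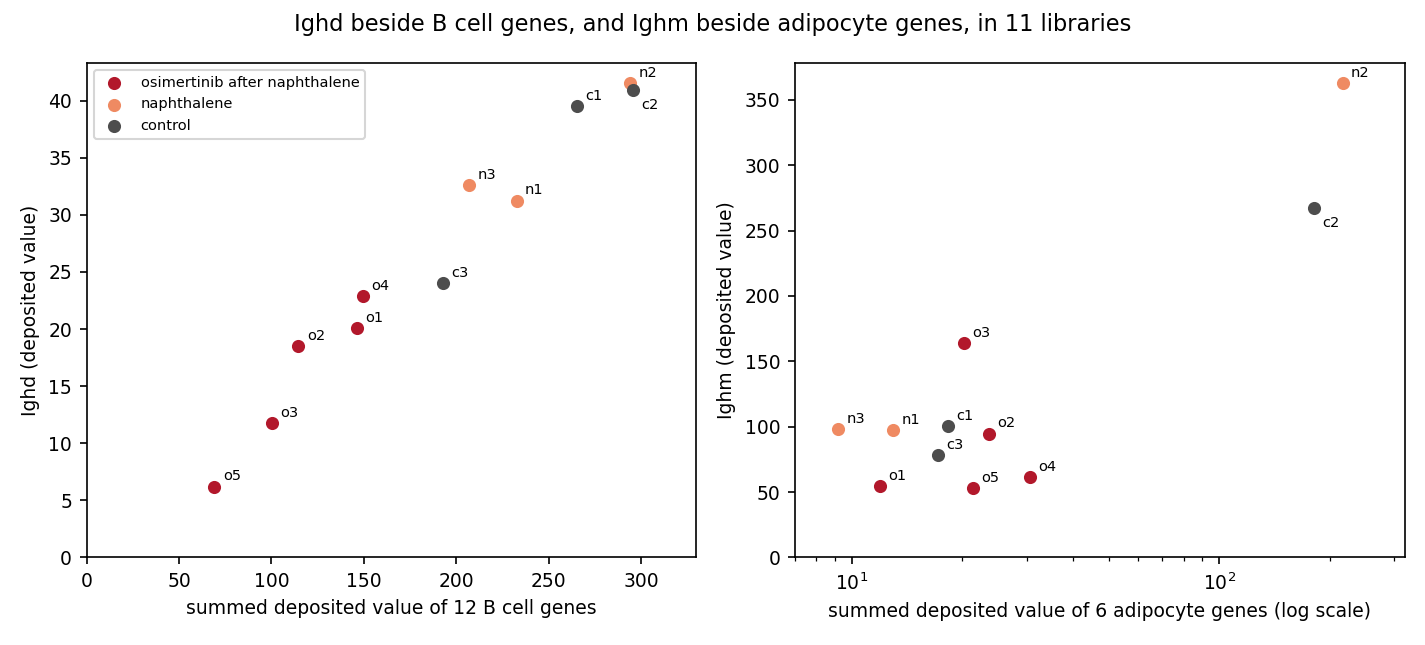
Left, Ighd against the summed deposited value of 12 B cell genes; right, Ighm against the summed deposited value of 6 adipocyte genes on a log axis, with 1 point per library (o, osimertinib; n, naphthalene; c, control; the digit is the replicate). Ighd runs along the B cell sum from osimertinib 5 up to naphthalene 2 and control 2. Ighm is also highest in naphthalene 2 and control 2, the libraries with adipocyte sums of 217 and 181.

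Ighm encodes the mu constant region, used by naive B cells and by IgM plasma cells. Deposited values of Ighm were 54.7, 94.8, 164, 61.7 and 53.0 in osimertinib 1 to 5, 97.6, 363 and 98.2 in naphthalene 1 to 3, and 100.2, 267 and 78.1 in control 1 to 3. The groups overlapped, and naphthalene 2 and control 2 were far above the other libraries of their groups. The means were 85.6 ± 46.9 (SD, n = 5) in osimertinib, 186 ± 153 (SD, n = 3) in naphthalene and 148 ± 103 (SD, n = 3) in control. For Ighm the log2 difference was −0.96 (SE 0.52, limma adjusted p = 0.564) for osimertinib against naphthalene and −0.72 (limma adjusted p = 0.999) against control. Without naphthalene 2 and control 2 together, a setting added after the values were seen, it was −0.33 and −0.19, and the means were 85.6, 97.9 and 89.1 in osimertinib, naphthalene and control. Without osimertinib 3 it was −1.23 against naphthalene (limma unadjusted p = 0.0229, adjusted p = 0.307) and −0.99 against control (limma unadjusted p = 0.0585).

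Naphthalene 2 and control 2 also carried markers of other tissue. The summed value of 6 adipocyte genes was 217 in naphthalene 2 and 181 in control 2, against 9.18 to 30.6 in the other 9 libraries. All 6 had their highest values in these libraries, and Lep was at 0 in 8 of the other 9. Cfd, which encodes adipsin, was at 128 in naphthalene 2 and 80.5 in control 2 and at most 15.3 elsewhere. Fabp4, a fatty acid binding protein, was at 40.3 and 40.0 in those libraries and at most 8.55 elsewhere. Adipoq, the defining adipocyte gene and named after its values were seen, was at 18.2 and 20.4 there and at most 2.06 elsewhere. The 4 measured genes of the lymphoid tissue stroma list did not move together in these libraries. Ccl21a, a chemokine of lymph node stroma and lymphatic vessels, was at 27.3 in naphthalene 2 and 24.2 in control 2 and at 25.9 to 114 elsewhere. Ltb, the membrane-bound lymphotoxin chain, was at 13.4 in both and at 4.13 to 12.4 elsewhere. Cxcl13, a chemokine of B cell follicles named after its values were seen, was at 10.7 and 17.3 there and at most 2.67 elsewhere, and Ccl19, another chemokine of that stroma also named after its values were seen, was at 2.37 and 1.44 there and 0.316 to 2.73 elsewhere. The sum of the 4 was 53.8 and 56.4 there and 35.7 to 127 elsewhere. The part of this tissue in the Ighm, Igkc and Jchain values was not tested. The correlation of Ighm with Adipoq was r = 0.76 over the 11 libraries and r = −0.53 over the 9 without those 2.

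Ighm and Ighd were therefore compared within each library, where scaling has no part. The ratio of Ighm to Ighd in deposited value was 2.72, 5.11, 13.9, 2.69 and 8.55 in osimertinib 1 to 5, 3.12, 8.73 and 3.01 in naphthalene 1 to 3, and 2.53, 6.53 and 3.25 in control 1 to 3. It was highest in osimertinib 3, where Ighd was low and Ighm high, and in naphthalene 2, where both were high. The correlation between both genes was r = 0.52 over the 11 libraries and r = 0.23 without naphthalene 2 and control 2. Ighm had r = 0.47 with Ms4a1 and r = 0.64 with Cd79a over the 11 libraries, and r = −0.03 and r = 0.38 without those 2. For Ighd these were r = 0.90 and r = 0.95, and r = 0.87 and r = 0.93 without them.

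Igkc, the constant region of kappa light chains, lay beside Ighm. Its deposited value was 27.9, 39.4, 65.7, 19.0 and 18.8 in osimertinib 1 to 5, 38.2, 155 and 38.5 in naphthalene 1 to 3, and 33.1, 88.5 and 22.9 in control 1 to 3. Osimertinib 3, naphthalene 2 and control 2 were again the highest of their groups, and the groups overlapped. The means were 34.2 ± 19.5 (SD, n = 5) in osimertinib, 77.4 ± 67.6 (SD, n = 3) in naphthalene and 48.2 ± 35.3 (SD, n = 3) in control. For Igkc the log2 difference was −0.99 (SE 0.55, limma adjusted p = 0.578) for osimertinib against naphthalene, and −0.41 (SE 0.55, limma adjusted p = 0.999) against control. Without naphthalene 2 and control 2 these were −0.32 and 0.14. Without osimertinib 3 the difference was −1.26 against naphthalene (limma unadjusted p = 0.0298, adjusted p = 0.335) and −0.68 against control. The correlation of Igkc with Ighm was r = 0.97 over the 11 libraries and r = 0.91 without those 2.

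Iglc2, a lambda constant region gene, lay nearer to Ighd than to Ighm by Pearson's r, and about as near to both by rank. Deposited values of Iglc2 were 6.95, 6.09, 9.80, 6.19 and 2.40 in osimertinib 1 to 5, 10.4, 10.7 and 17.0 in naphthalene 1 to 3, and 11.5, 19.4 and 7.42 in control 1 to 3. The osimertinib libraries were all below the naphthalene libraries, and control 3 fell within the osimertinib range. For Iglc2 the log2 difference was −0.97 (SE 0.36, limma unadjusted p = 0.0187, adjusted p = 0.371) for osimertinib against naphthalene and −0.92 (SE 0.36, limma unadjusted p = 0.0243, adjusted p = 0.905) against control. Without naphthalene 2 and control 2 it was −1.07 and −0.59. The correlation was r = 0.81 with Ighd and r = 0.65 with Ighm, and Spearman's rank correlations were 0.84 and 0.80. The ratio of Igkc to the summed lambda constant genes was 1.62 to 3.81 in osimertinib, 1.45 to 6.55 in naphthalene and 1.55 to 2.66 in control, so these ranges overlapped.

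Lambda constant genes resemble each other to differing degrees, and the last 120 coding bases with the stop codon are shown because they set how far reads can be told apart. They come from GENCODE M21 of build GRCm38, minus strand, at chr16:19198536-19198655 for Iglc2, chr16:19065365-19065484 for Iglc3 and chr16:19061752-19061871 for Iglc1, with capitals where the base differs from Iglc2.
Iglc2: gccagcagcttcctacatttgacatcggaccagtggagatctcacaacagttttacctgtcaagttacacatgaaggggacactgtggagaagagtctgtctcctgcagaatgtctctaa
Iglc3: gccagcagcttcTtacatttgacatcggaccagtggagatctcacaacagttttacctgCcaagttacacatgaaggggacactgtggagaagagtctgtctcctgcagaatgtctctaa
Iglc1: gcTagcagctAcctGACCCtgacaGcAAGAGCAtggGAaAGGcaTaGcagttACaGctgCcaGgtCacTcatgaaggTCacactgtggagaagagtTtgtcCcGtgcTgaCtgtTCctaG
Iglc2 and Iglc3 are the same at 306 of 317 aligned coding bases (96.5%), so the split of reads between them is uncertain, while Iglc1 is the same as Iglc2 at 81 of the 120 bases shown (67.5%). Iglc3 was at 0.800 to 6.41 in osimertinib, 5.14 to 7.80 in naphthalene and 3.94 to 8.38 in control, with log2 differences of −0.99 (limma adjusted p = 0.374) and −0.95 (limma adjusted p = 0.905) for osimertinib against naphthalene and control. Iglc1 was at 1.73 to 2.79 in osimertinib, 1.26 to 7.91 in naphthalene and 2.47 to 5.50 in control, and its log2 differences of −0.25 and −0.47 were smaller.

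Igha encodes the alpha constant region of IgA. Its deposited value was 32.3, 6.09, 13.5, 3.19 and 8.26 in osimertinib 1 to 5, 6.63, 7.12 and 0.918 in naphthalene 1 to 3, and 1.25, 3.80 and 6.08 in control 1 to 3. Osimertinib 1, 3 and 5 were above every naphthalene and control library, while osimertinib 2 and 4 fell within their range. So 0 members lay higher without overlap in osimertinib, where 3.82% of all genes did against naphthalene and 2.91% against control. The read numbers behind these values were 423, 23, 152, 48 and 124 in osimertinib, 21, 18 and 2 in naphthalene, and 22, 58 and 91 in control. The means were 12.7 ± 11.6 (SD, n = 5) in osimertinib, 4.89 ± 3.45 (SD, n = 3) in naphthalene and 3.71 ± 2.42 (SD, n = 3) in control. The log2 difference was 1.11 (SE 0.65, limma unadjusted p = 0.116, adjusted p = 0.599) for osimertinib against naphthalene and 1.32 (SE 0.65, limma unadjusted p = 0.0666, adjusted p = 0.999) against control. Without osimertinib 1 it was 0.69 and 0.91, and without naphthalene 3, where Igha had 2 reads, it was 0.43 against naphthalene. Against control the unadjusted p was 0.0343 with DESeq2 and 0.0290 with edgeR, where 3.65% and 2.98% of all genes were higher at an unadjusted p under 0.05. With limma it was 0.0429 without naphthalene 3, 0.0458 without control 3 and 0.0228 without osimertinib 4, and against naphthalene it was 0.0417 without osimertinib 4. None of these passed after adjustment over all genes.

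Jchain encodes the J chain described above. Deposited values of Jchain were 8.85, 9.53, 15.6, 1.86 and 8.86 in osimertinib 1 to 5, 6.31, 36.4 and 2.75 in naphthalene 1 to 3, and 1.76, 29.3 and 2.21 in control 1 to 3. Naphthalene 2 and control 2 were the 2 highest of all libraries, and 4 of 5 osimertinib libraries lay above the other 2 of each remaining group. The log2 difference was −0.22 (SE 0.87, limma adjusted p = 0.951) for osimertinib against naphthalene and 0.42 (SE 0.87, limma adjusted p = 0.999) against control, where the ratio of the means was 0.805 and so of the opposite direction. Without naphthalene 2 and control 2 the log2 difference was 0.72 against naphthalene and 1.54 against control, with 2 control libraries then left (limma unadjusted p = 0.0217, adjusted p = 1.00). The correlation of Jchain with Igha was r = 0.46 over the 11 libraries and r = 0.74 without those 2, and with Ighm it was r = 0.72 and r = 0.21.

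Ighm and Ighd were then set against Igha and Jchain as log2 ratios inside each library, with 12 exact two-sided permutation tests over libraries and adjustment over the 12. IgM plasma cells also use Ighm, so ratios to Ighm are not ratios to naive B cells alone. The mean log2 ratio of Igha to Ighd was −0.55 ± 1.37 (SD, n = 5) in osimertinib, −2.87 ± 1.11 (SD, n = 3) in naphthalene and −3.04 ± 1.18 (SD, n = 3) in control. The difference was 2.31 for osimertinib against naphthalene (exact permutation p = 0.107, adjusted p = 0.343) and 2.49 against control (exact permutation p = 0.0714, adjusted p = 0.343). In 4 of 5 osimertinib libraries the ratio was above that of every naphthalene and control library, and osimertinib 4 lay among them. The labels do not say that the replicate number pairs libraries. Taken as pairs by that number, osimertinib 1 to 3 were above naphthalene 1 to 3 in 3 of 3 pairs, by 2.74, 0.93 and 4.32 (exact paired permutation p = 0.250, the smallest that 3 pairs can give). The mean log2 ratio of Igha to Ighm was −2.89 ± 1.31 (SD, n = 5) in osimertinib, −4.96 ± 1.10 (SD, n = 3) in naphthalene and −4.93 ± 1.26 (SD, n = 3) in control. Its difference was 2.07 against naphthalene (exact permutation p = 0.107, adjusted p = 0.343) and 2.04 against control (exact permutation p = 0.143, adjusted p = 0.343). The 3 pairs of osimertinib and naphthalene libraries differed in this ratio by 2.95, 1.73 and 2.19, again with the exact paired permutation p at 0.250.

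The differences in the ratios of Jchain were smaller in value. For Jchain to Ighm the difference was 0.74 for osimertinib against naphthalene (exact permutation p = 0.214, adjusted p = 0.429) and 1.14 against control (exact permutation p = 0.143, adjusted p = 0.343). The pairs differed by 1.25, 0.097 and 1.41. For Jchain to Ighd it was 0.99 against naphthalene (exact permutation p = 0.393, adjusted p = 0.589) and 1.59 against control (exact permutation p = 0.250, adjusted p = 0.429), and the pairs differed by 1.04, −0.71 and 3.54. Between naphthalene and control the 4 differences were −0.03 to 0.61, in a design of 3 against 3 that cannot give a p below 0.1. None of the 12 ratios passed, and in each of them the groups overlapped.

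**Figure D4:**
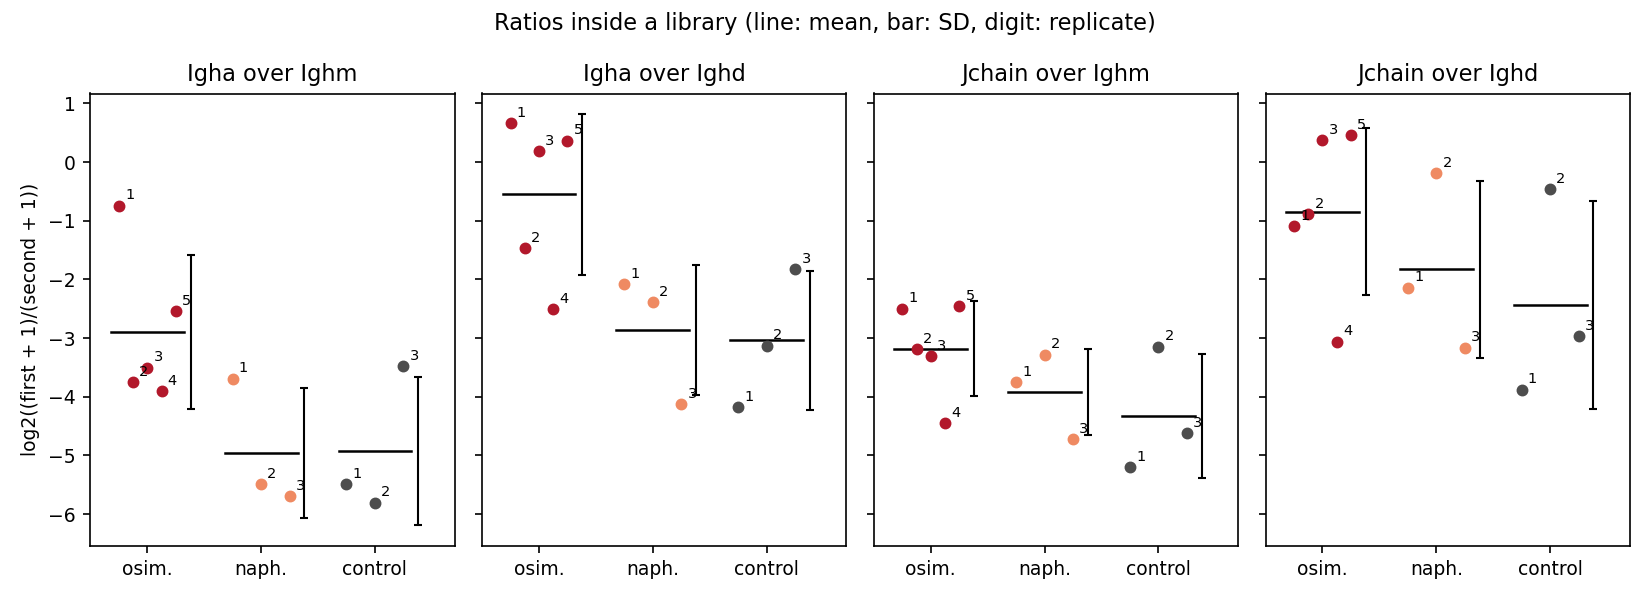
Log2 ratio of Igha or Jchain to Ighm or Ighd in each library, from deposited values with 1 added to each, with the group mean and SD. The osimertinib mean is the highest of the 3 groups in all 4 panels, with overlap, and the Igha to Ighd ratio has the largest differences (2.31 and 2.49).

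The same comparison was made as shares of the reads of all heavy chain constant genes, with 95% Wilson intervals that cover counting error only. These reads numbered 462 to 2166 in osimertinib, 288 to 1057 in naphthalene and 1625 to 4805 in control. Igha took 29.3% (27.0 to 31.7), 4.98% (3.34 to 7.36), 7.02% (6.02 to 8.17), 3.58% (2.71 to 4.71) and 12.1% (10.3 to 14.3) in osimertinib 1 to 5. It took 4.86% (3.20 to 7.32), 1.70% (1.08 to 2.68) and 0.694% (0.191 to 2.50) in naphthalene 1 to 3, and 0.876% (0.579 to 1.32), 1.21% (0.934 to 1.56) and 5.60% (4.58 to 6.83) in control 1 to 3. The share was highest in osimertinib 1 and 5, and the others of that group were within or near the range of naphthalene 1 and control 3. Ighm had the largest share in each library, from 49.6% (47.0 to 52.2) in osimertinib 1 to 86.8% (84.6 to 88.7) in naphthalene 2. Ighd took 6.09% (5.16 to 7.18) in osimertinib 3 and 9.11% (7.49 to 11.03) in osimertinib 5, the lowest shares of the 11 libraries. Gamma classes were scarce, with shares of 2.84, 2.38, 1.99, 1.71 and 0.881% in osimertinib 1 to 5. They took 0.694, 1.61 and 0.347% in naphthalene 1 to 3, and 1.19, 0.853 and 0.431% in control 1 to 3. Osimertinib 1 to 4 thus lay above every naphthalene and control library in this share, and osimertinib 5 within their range. The gamma shares were not tested. Their summed deposited value was 0.5997 to 3.83 in osimertinib, 0.459 to 6.72 in naphthalene and 0.468 to 2.68 in control.

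**Figure D5:**
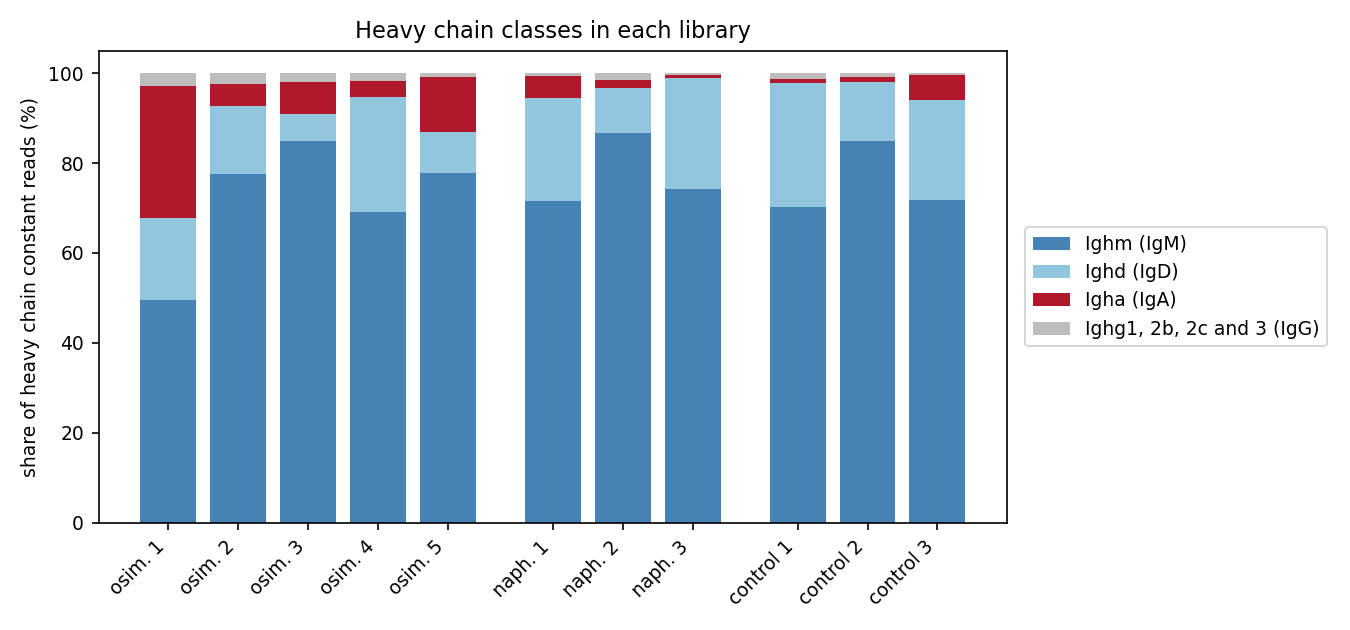
Percent of the reads of heavy chain constant genes that came from Ighm, Ighd, Igha and the Ighg genes, in each of the 11 libraries. Igha takes 29.3% in osimertinib 1 and 12.1% in osimertinib 5, and at most 7.02% in the other 9 libraries.

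Xbp1 encodes the transcription factor that drives the expansion of the endoplasmic reticulum in plasma cells and in secretory epithelia. Deposited values of Xbp1 were 93.6, 113, 168, 105 and 113 in osimertinib 1 to 5, 87.1, 100.1 and 123 in naphthalene 1 to 3, and 109, 86.1 and 112 in control 1 to 3. Osimertinib 3 was above all others, and the groups overlapped. For Xbp1 the log2 difference was 0.18 (SE 0.18, limma adjusted p = 0.774) for osimertinib against naphthalene and 0.19 (limma adjusted p = 0.999) against control. Without osimertinib 3 it was 0.05 and 0.06.

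Mzb1 encodes an endoplasmic reticulum protein of marginal zone B cells and plasma cells that assists antibody assembly and secretion. It was at 1.06 to 2.58 in osimertinib, 0.918 to 4.35 in naphthalene and 2.34 to 3.80 in control, and the low naphthalene value rested on 2 reads. For Mzb1 the log2 difference was −0.41 (SE 0.31, limma adjusted p = 0.690) for osimertinib against naphthalene and −0.62 (limma unadjusted p = 0.0679, adjusted p = 0.999) against control, where DESeq2 and edgeR gave unadjusted p-values of 0.0248 and 0.0332. The groups overlapped in both.

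Levels of the 8 genes can be set side by side only per length, here per kilobase of the longest coding transcript in GENCODE M21. In osimertinib the mean deposited value per kilobase was 64.2 ± 36.7 for Igkc, 55.7 ± 13.4 for Xbp1, 50.4 ± 27.6 for Ighm, 10.4 ± 4.36 for Iglc2, 8.80 ± 3.76 for Ighd, 6.42 ± 3.49 for Jchain, 4.99 ± 4.57 for Igha and 1.78 ± 0.690 for Mzb1 (SD, n = 5). In naphthalene Igkc was at 145 ± 127, Ighm at 110 ± 90.0, Xbp1 at 48.6 ± 8.51, Iglc2 at 20.9 ± 6.13, Ighd at 19.4 ± 3.09, Jchain at 10.9 ± 13.3, Mzb1 at 2.99 ± 1.90 and Igha at 1.92 ± 1.36 (SD, n = 3). In control Igkc was at 90.5 ± 66.4, Ighm at 87.4 ± 60.9, Xbp1 at 48.0 ± 6.56, Iglc2 at 21.1 ± 10.1, Ighd at 19.3 ± 5.21, Jchain at 7.97 ± 11.3, Mzb1 at 3.29 ± 0.827 and Igha at 1.46 ± 0.952 (SD, n = 3). Igkc, Ighm and Xbp1 led in every group and were within the spread of each other, as were Iglc2 and Ighd. Igha was the lowest of the 8 in naphthalene and control, and Mzb1 was in osimertinib, and these neighbours were within their spread in osimertinib and naphthalene, while in control the gap between Mzb1 and Igha was above the SD of either. The order of Igha and Mzb1 rests on the lengths chosen, 2540 bases for Igha and 904 for Mzb1, and a shorter transcript would raise a gene's level.

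Other genes that mark or direct plasma cells were listed beside the members. Of 12 plasma cell identity genes 10 passed the filter on low values, and 0 of them passed limma's adjusted threshold in any comparison. At an unadjusted p under 0.05 limma gave 0 higher and 1 lower for osimertinib against naphthalene, 1 higher and 2 lower against control, and 1 higher and 1 lower for naphthalene against control. Of all genes, 7.08% were higher and 3.22% lower in the first comparison, 2.31% and 2.5% in the second, and 1.73% and 5.74% in the third. EdgeR called 0 and DESeq2 called 0 against naphthalene and 1 lower against control, where DESeq2 called 0.203% of all genes lower. Sdc1, which encodes syndecan-1 of plasma cells and of epithelium, was at 128 to 142 in osimertinib, 110 to 139 in naphthalene and 134 to 137 in control. Zbtb20, a transcription factor of plasma cells and many other cells, was at 268 to 427 in osimertinib, 422 to 470 in naphthalene and 349 to 416 in control. Named after their values were seen, Pou2af1, a B lineage coactivator, had log2 differences of −1.16 and −1.07 (limma adjusted p = 0.262 and 0.641), and Tnfrsf17, the plasma cell receptor BCMA, had no read in 6 of 11 libraries and was at most at 0.459 in the others.

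Genes of protein folding and export in the endoplasmic reticulum, on which antibody secretion depends, came next. Of 21 listed genes 20 passed the filter, and 0 passed limma's adjusted threshold in any comparison, as with edgeR and DESeq2. At an unadjusted p under 0.05 limma gave 2 higher and 0 lower for osimertinib against naphthalene, 0 higher and 1 lower against control, and 0 higher and 1 lower for naphthalene against control. The shares of all genes at that threshold are those given with the plasma cell identity genes. The median log2 difference of the 20 was 0.11 for osimertinib against naphthalene and 0.07 against control, with medians over all genes of 0.06 and −0.01. Hsp90b1, the chaperone GRP94, was at 263 to 388 in osimertinib, 274 to 359 in naphthalene and 314 to 345 in control. Hspa5, the chaperone BiP, was at 150 to 275 in osimertinib, 144 to 211 in naphthalene and 194 to 246 in control.

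Genes of the IgA axis were listed too, for transport, homing, survival and class switching. Of 14 genes 10 passed the filter, 0 passed limma's adjusted threshold in any comparison, and edgeR and DESeq2 also called 0. At an unadjusted p under 0.05 limma gave 1 higher and 1 lower for osimertinib against naphthalene, 0 higher and 2 lower against control, and 0 higher and 1 lower for naphthalene against control. The plasma cell identity paragraph gives the shares of all genes at that threshold. Itga4, the integrin chain that guides lymphocytes into tissue, was at 55.5 to 75.3 in osimertinib, 84.9 to 97.9 in naphthalene and 76.0 to 93.9 in control, with log2 differences of −0.46 and −0.36 (limma unadjusted p = 0.00247 and 0.0116, adjusted p = 0.233 and 0.761). Cxcl12, the chemokine that retains plasma cells in their niche, was at 79.5 to 152 in osimertinib, 107 to 134 in naphthalene and 107 to 151 in control. Pigr, the epithelial receptor that carries polymeric IgA and IgM and named after its values were seen, was at 6.15 to 46.3 in osimertinib, 13.3 to 75.5 in naphthalene and 43.2 to 74.3 in control.

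Variable segments, which are joined to the constant regions in each clone, gave a further view of the same transcripts. The file held 111 heavy and light chain V segments, of which 9 passed the filter. Their summed deposited value was 31.5, 48.4, 56.4, 20.4 and 23.0 in osimertinib 1 to 5, 45.8, 137 and 35.3 in naphthalene 1 to 3, and 33.4, 87.2 and 26.7 in control 1 to 3. The highest library of each group was the same as for Ighm and Igkc. By mean over the libraries the highest segments were Iglv1 (2.75) and Igkv1-117 (2.46), and Igkv1-117 reached 13.8 in naphthalene 2.

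The genes most like each member over the 11 libraries were found by Pearson's r on log2(value + 1) among 11652 genes with a mean of at least 5. These are descriptions, and the libraries share depth and scaling. Ighm was most like Irak3 (r = 0.90), Gpd1 (r = 0.87) and Cidec (r = 0.86), of which Gpd1 and Cidec are known from adipocytes. Without the 2 libraries farthest from the median, r with Irak3 was 0.87, with Gpd1 0.43 and with Cidec 0.48. Igkc was most like Irak3 (r = 0.92), Wdr20 and Setdb2, and Jchain was most like Cidec (r = 0.84), Atpaf2 and Nop58. Igha was most like Slc7a11 (r = 0.91, and 0.74 without osimertinib 1 and naphthalene 3), Tnc and Pvr. Xbp1 was most like Uba3 (r = 0.98), Manf (r = 0.97), which encodes a protein of the endoplasmic reticulum, and Ly6c1 (r = 0.96). For Ighd, added after its values were seen, the genes were Fcer2a (r = 0.99), which encodes the B cell surface protein CD23, Bank1 (r = 0.98) and Fcmr (r = 0.97), the Fc receptor for IgM.

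Naphthalene alone was also set against control, and since the labels give no time, this does not show the state before osimertinib. No member had an unadjusted p under 0.05, and 0 had groups without overlap, where 4.94% of all genes were higher and 11.2% lower without overlap. The log2 difference was 0.24 for Ighm, 0.04 for Ighd, 0.21 for Igha, 0.58 for Igkc, 0.05 for Iglc2, 0.64 for Jchain, −0.21 for Mzb1 and 0.01 for Xbp1, with SEs up to 0.98. Among the 4 libraries with a high share of ENSMUSG00000119584 reads, osimertinib 2 could be set against the 3 naphthalene libraries, with 1 library on 1 side and so no test. Its log2 difference was −0.88 for Ighd, −0.67 for Ighm, 0.53 for Igha, −0.62 for Igkc, −0.92 for Iglc2, −0.73 for Mzb1 and 0.14 for Xbp1, each of the same sign as with all libraries, and 0.06 for Jchain, of the opposite sign.

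Markers of further cell types were summed beside these results. The T cell sum (10 genes) was 25.9 to 39.8 in osimertinib, 40.1 to 50.02 in naphthalene and 47.7 to 52.4 in control. The erythroid sum (6 genes) was 747 to 10362 in osimertinib, 376 to 2759 in naphthalene and 1927 to 3562 in control. The thymocyte sum (3 genes) was 17.6 in control 3, with Rag1 at 10.8, and 1.13 to 4.75 elsewhere. The club and goblet cell sum (8 genes) was 2903 to 9073 in osimertinib, 5579 to 9620 in naphthalene and 12054 to 14803 in control. The alveolar type 2 sum (5 genes) was 11776 to 24482 in osimertinib, 10655 to 16598 in naphthalene and 10012 to 11362 in control. The part of these cell types in the immunoglobulin values was not tested.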

How the data were processed

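The authors deposited 1 normalised signal per gene and library, in CPM of library size times a normalisation factor. Build GRCm39 and the tools Bowtie2, RSEM 1.3.0, edgeR and Trimmomatic 0.38 come from the submitters' processing notes, which give no roles. Per the labels' protocols, total RNA was depleted of ribosomal RNA and made into directional libraries. Divided by the smallest value of its library, each value came out whole within 0.01 (100% of values), which gave whole reads, and edgeR's TMM scaling of those reads gave the deposited values back. Names, lengths and sequences came from GENCODE M21 of GRCm38, which named 23123 genes and left 132 without a name, and no coordinates of the files were used.

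The test was limma 3.58.1 in R 4.3.3 on log2(value + 1), with a variance trend and all 3 groups in 1 fit, over 16225 genes with a mean of at least 1, at an adjusted p of 0.05. The scale understates differences of low genes. The fit was tested on simulated data with the same spread for all genes. That run does not show how often a change would be found in genes that vary as widely as some of these. Within groups, the variance between any pair of libraries was at least 3.44 times that of counting, so no library was taken as a duplicate. The members and lists were chosen with earlier results of these data known. Of each list the genes past the threshold, otherwise the 2 with the highest mean, are named. Other genes are said to be named after their values were seen.

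Alternatives were pseudocounts, filters, scalings, only 2 groups, array weights, a replicate block, each library left out, and tests of the recovered reads with DESeq2 1.42.0 and with edgeR 4.0.16. Settings without naphthalene 2 and control 2, without osimertinib 2 and 3, with a term for the high read share, and with paired ratios were added after the data were seen. Deviations from the group mean of same-numbered naphthalene and osimertinib libraries had correlations of 0.122, 0.159 and 0.523. Both libraries of a number were closest to each other only for number 3, so the values do not settle whether the number pairs them. The labels state no pairing either, so the replicate block and the paired ratios are given as settings only. Control libraries were closest to those of the same number only for number 2, and no paired ratios were taken with control. The replicate block was fitted over all 3 groups, so control 1 to 3 also shared it with the same numbers of the other groups. Osimertinib 4 and 5 have no partner, so the blocked differences of that group come from osimertinib 1 to 3.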

Additional observations from a re-analysis of the deposited data

Results flagged for a closer look

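In groups of 5, the gap between an extreme library and its neighbour was set against the group's range, for 12 values of the osimertinib group, where chance passes about 1 in 20. Xbp1 in osimertinib 3 passed, at a deposited value of 168 against 93.6 to 113 in the other 4 osimertinib libraries. In the same library the erythroid and alveolar type 2 sums were 10362 and 24482, the highest of the 11 libraries. The share of reads from ENSMUSG00000118841 was also the highest there, at 16.7%. The part of these in the Xbp1 value was not tested.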

How the results depend on the processing

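In all settings except equal totals, 0 of 8 members were called in each of the 3 comparisons, replicate block and each library left out included. Under equal totals, osimertinib against control had 2 calls, Ighd and Iglc2, both lower, where 0.52% of all genes were called lower and 0.0604% higher. Osimertinib against naphthalene had 3 calls, where 87% of all genes were called higher. Naphthalene against control had 7, where 95.1% of all genes were called lower. The median gene itself lay at −0.34, 1.10 and −1.45 in these comparisons, in this order. Deviations of same-numbered libraries had correlations with control of −0.038, 0.075 and −0.15 for osimertinib and −0.064, 0.203 and −0.093 for naphthalene. Libraries were closest to their own number only for number 2, so the values do not settle whether the number pairs them with control. The replicate block, which took in the control libraries too, gave for osimertinib against control an unadjusted p under 0.05 for Ighd, lower, and Igha, higher. At that threshold 3.24% of all genes were lower and 2.77% higher. The log2 differences of Ighd, Iglc2 and Igha for osimertinib kept their sign in every setting, with 1 exception, Iglc2 against naphthalene under equal totals (0.083). Those of the Igha and Jchain ratios for osimertinib did in every setting too.

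For naphthalene against control, differences near 0 changed sign. Under equal totals they were −1.30 for Ighm, −1.47 for Ighd, −0.87 for Igha, −0.94 for Igkc, −1.37 for Iglc2, −0.60 for Jchain and −1.53 for Xbp1. A term for the high read share gave −0.12 for Ighm, −0.37 for Ighd, −0.016 for Iglc2 and 0.18 for Mzb1, and since all naphthalene and no control libraries have that share, the size of that term comes from osimertinib 2 against the other 4 osimertinib libraries alone. Without naphthalene 2 and control 2 they were −0.061 for Igha and −0.089 for Xbp1 (−0.033 with DESeq2), and −0.11 for the Igha to Ighd ratio. Array weights gave −0.088 for Iglc2 and −0.039 for Xbp1, and edgeR −0.028 for Iglc2. With each library left out in turn the ranges were −0.38 to 0.77 for Ighm, −0.20 to 0.17 for Ighd, −0.25 to 0.89 for Igha, −0.085 to 1.13 for Igkc, −0.26 to 0.38 for Iglc2, −0.30 to 1.76 for Jchain, −0.53 to 0.21 for Mzb1 and −0.12 to 0.13 for Xbp1. For the ratios they were −0.66 to 0.69 for Igha to Ighm, −0.39 to 0.81 for Igha to Ighd, −0.035 to 0.99 for Jchain to Ighm and −0.22 to 1.59 for Jchain to Ighd.

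For osimertinib against naphthalene, equal totals gave 0.21 for Ighm, 0.17 for Igkc, 0.73 for Jchain and 0.30 for Mzb1. Jchain was also 0.25 with the replicate block, 0.062 with a term for the high read share (osimertinib 2 alone against naphthalene), 0.72 without naphthalene 2 and control 2 (0.90 with DESeq2), and −0.93 to 0.72 with each library left out. For osimertinib against control, Igkc was 0.031 with the replicate block, 0.14 without naphthalene 2 and control 2 (0.29 with DESeq2) and −0.81 to 0.14 with each library left out. Jchain was −0.30 with DESeq2, −0.34 with array weights, −0.32 with edgeR and −0.19 to 1.54 with each library left out, and Xbp1 was −0.18 under equal totals. The cause of these changes was not tested. Values of Igha, Mzb1 and Iglc3 in the naphthalene libraries and osimertinib 2 rest on few reads, which limits what they can show.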
